A study of Homo sapiens with 16 samples.

Results

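The block of chromosome 6 described here runs from 34 to 44 Mb on GRCh38, and its members are the ATAC-seq peaks whose summit lies in it. It held 7541 of the 477967 peaks in 4 peak lists. Selected cells had 2102 members on soft and 2106 on stiff gel, and ancestral cells had 1846 on soft and 1487 on stiff gel. The block was picked because peaks found in a single list were unevenly spread there, so differences in its peak counts and pileups between lists are given as a description, with no test.

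ATAC-seq, in which a transposase cuts and tags open DNA, had been run on MDA-MB-231, an established human breast adenocarcinoma line of mesenchymal, basal-like character. The 16 samples formed 4 groups of 4, all from the same line with no engineered allele. Cells selected for 75 days by repeated passage on polyacrylamide gel carrying type I collagen were grown on soft gel of 1 kPa or on stiff gel of 308 kPa, and ancestral, unselected cells were grown on each gel. The labels of the selected cells on stiff gel do not say whether they were selected on stiff gel or moved there after selection on soft gel, and the stated purpose was to compare soft-selected with ancestral cells on soft gel. Each group has 1 deposited peak list, so there is no spread between replicates, and every 95% interval below covers counting error or the spread between peaks only.

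Open chromatin marks promoters and enhancers, where transcription factors keep nucleosomes away from the DNA. Promoters of broadly expressed genes are usually open in every cell type, whereas genes used in other tissues are mostly closed. The short arm of chromosome 6 holds the major histocompatibility genes below the block. The block itself carries the cell cycle inhibitor CDKN1A, the cyclin gene CCND3, the kinase gene PIM1, the transcription factor genes SRF and TFEB, and VEGFA, which encodes the main growth factor of blood vessels. It also carries receptors of myeloid cells (TREM1, TREM2) and photoreceptor genes (PRPH2, GUCA1A, GUCA1B). The annotation lists 141 protein-coding genes with any part in the block.

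The promoters below, from RefSeq on GRCh38.p14, show the range of peak strength in the block. Each runs from 250 bases before to 50 bases after an annotated start and is written 5′ to 3′ on the strand of its gene. OARD1 (chr6:41072307-41072606, minus strand) lies under the highest peak of the block, PIM1 (chr6:37169902-37170201, plus strand) and ZFAND3 (chr6:37819477-37819776, plus strand) lie under strong peaks in all 4 lists, GRM4 (chr6:34110714-34111013, minus strand) and TREM1 (chr6:41286633-41286932, minus strand) lie under weak peaks in all 4 lists, and the BTBD9 start at chr6:38596018-38596317 (minus strand) had no peak in any list. Capitals mark matches on either strand to the AP-1 motif TGACTCA, the TEAD motif GGAATG, the CCAAT box, the SP/KLF motif GGGCGG or the TATA box letters TATAAA, and no matches overlapped in these promoters.
OARD1: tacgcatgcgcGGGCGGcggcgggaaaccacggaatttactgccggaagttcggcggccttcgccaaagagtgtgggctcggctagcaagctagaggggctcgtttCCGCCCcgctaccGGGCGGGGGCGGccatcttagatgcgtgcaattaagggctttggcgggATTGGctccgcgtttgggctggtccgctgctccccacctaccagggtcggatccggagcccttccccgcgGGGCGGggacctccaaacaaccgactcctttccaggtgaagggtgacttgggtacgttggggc
PIM1: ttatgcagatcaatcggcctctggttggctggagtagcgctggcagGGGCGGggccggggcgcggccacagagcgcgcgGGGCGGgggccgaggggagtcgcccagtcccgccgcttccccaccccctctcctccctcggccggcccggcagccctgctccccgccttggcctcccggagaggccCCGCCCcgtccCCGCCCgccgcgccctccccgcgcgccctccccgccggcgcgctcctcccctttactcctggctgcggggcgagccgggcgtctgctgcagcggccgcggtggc
ZFAND3: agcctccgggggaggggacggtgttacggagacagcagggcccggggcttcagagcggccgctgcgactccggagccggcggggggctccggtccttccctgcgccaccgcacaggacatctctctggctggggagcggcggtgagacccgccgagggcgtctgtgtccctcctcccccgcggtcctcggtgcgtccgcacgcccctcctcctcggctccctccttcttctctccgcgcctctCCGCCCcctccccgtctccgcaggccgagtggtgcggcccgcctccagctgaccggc
GRM4: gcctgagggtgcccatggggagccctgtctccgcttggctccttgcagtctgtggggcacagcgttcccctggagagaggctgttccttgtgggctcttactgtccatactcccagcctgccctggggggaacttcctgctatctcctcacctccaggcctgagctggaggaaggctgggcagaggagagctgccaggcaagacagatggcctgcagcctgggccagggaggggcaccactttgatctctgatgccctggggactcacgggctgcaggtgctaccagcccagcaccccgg
TREM1: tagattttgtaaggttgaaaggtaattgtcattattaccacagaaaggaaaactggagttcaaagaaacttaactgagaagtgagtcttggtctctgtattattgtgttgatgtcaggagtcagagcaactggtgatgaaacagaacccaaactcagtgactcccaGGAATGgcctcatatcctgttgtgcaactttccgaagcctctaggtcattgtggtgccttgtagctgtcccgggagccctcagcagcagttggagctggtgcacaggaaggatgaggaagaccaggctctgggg
BTBD9: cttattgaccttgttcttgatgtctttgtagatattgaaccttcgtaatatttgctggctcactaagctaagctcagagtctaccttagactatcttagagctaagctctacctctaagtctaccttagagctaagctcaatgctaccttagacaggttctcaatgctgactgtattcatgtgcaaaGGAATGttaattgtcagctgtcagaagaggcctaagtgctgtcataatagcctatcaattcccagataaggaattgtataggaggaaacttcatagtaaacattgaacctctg

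The pileup, the number of fragments that cover a peak's summit, was 3869 on soft and 4357 on stiff gel in selected cells at the OARD1 promoter, against 7120 and 9068 in ancestral cells. This peak also lies within 1 kb of an annotated end of NFYA, a transcription factor gene. At PIM1 the pileup was 1067 and 1414 in selected cells, against 2323 and 3432 in ancestral cells. At TREM1 it was 42 and 45 in selected cells, against 96 and 107 in ancestral cells, and at this GRM4 start 52 and 62, against 49 and 74. The OARD1 promoter holds 5 SP/KLF matches and 1 CCAAT match, PIM1 holds 4 SP/KLF matches, ZFAND3 holds 1, TREM1 and BTBD9 hold 1 TEAD match each, and GRM4 holds no match to any of the motifs. SP/KLF letters occur in 45.0% of 35116 promoters of this length, CCAAT in 34.6%, TEAD in 14.0%, TATA in 11.5% and AP-1 in 4.95%.

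Peaks were denser in the block than in any other 10 Mb window of chromosomes 1 to 22 and X, in each of the 4 lists. Of 3024 other windows, moved in 1 Mb steps and clear of the block, 0 held more peaks. The densest other window held 1782 peaks on soft and 1771 on stiff gel in selected cells, and 1362 and 1453 in ancestral cells. The median other window held 294 and 284 in selected cells, and 280.5 and 307.5 in ancestral cells. The peaks of the block covered 32.8% of its bases on soft and 28.6% on stiff gel in selected cells, against 22.5% and 19.5% in ancestral cells. In the 10 Mb on either side together they covered 10.6% and 9.46% in selected cells, against 7.96% and 8.20% in ancestral cells.

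Per protein-coding gene, the block had 14.9 peaks on soft and 14.9 on stiff gel in selected cells, against 13.1 and 10.5 in ancestral cells. The flank from 24 to 34 Mb, with 281 genes, had 3.99 and 3.67 in selected cells, against 3.10 and 3.12 in ancestral cells. The genome had 6.49 and 6.14 in selected cells, against 5.48 and 5.81 in ancestral cells. The steps of 500 kb from 40 to 40.5 Mb and from 40.5 to 41 Mb each hold part of 1 coding gene, LRFN2, a synaptic adhesion gene. They had 108 and 171 peaks in selected cells on soft gel, 78 and 154 in selected cells on stiff gel, 88 and 155 in ancestral cells on soft gel, and 42 and 95 in ancestral cells on stiff gel.

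The peaks of the block were mostly weak. Their median pileup was 42 on soft and 39 on stiff gel in selected cells, against 47 and 63 in ancestral cells. Over the genome it was 51 and 56 in selected cells, against 111 and 132 in ancestral cells. The lowest pileup that any peak of the block had was 27 and 26 in selected cells, against 31 and 37 in ancestral cells, so the members crowd toward the lowest values that were called. A −log10 q of at least 10 was reached by 39.1% and 37.0% of members in selected cells, against 44.3% and 57.1% in ancestral cells, while the genome had 57.5% and 63.2% in selected cells, against 78.7% and 81.4% in ancestral cells. In bulk libraries, a site open in fewer cells and a site less open in every cell cannot be told apart.

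Peak counts were lower just below 33.5 Mb and above 44.5 Mb than at the ends of the block. From 33 to 33.5 Mb there were 81 peaks on soft and 80 on stiff gel in selected cells, against 62 and 69 in ancestral cells. From 33.5 to 34 Mb there were 121 and 124 in selected cells, against 98 and 92 in ancestral cells. The last step inside the block, from 43.5 to 44 Mb, had 126 and 135 in selected cells, against 93 and 81 in ancestral cells. The first step outside it, from 44 to 44.5 Mb, had 85 and 94 in selected cells, against 78 and 67 in ancestral cells. The step from 44.5 to 45 Mb, past the heat shock gene HSP90AB1, had 41 and 30 in selected cells, against 30 and 26 in ancestral cells. Inside the block the step from 38.5 to 39 Mb, with parts of BTBD9, GLO1 and DNAH8, had 21 and 14 peaks in selected cells, against 14 and 11 in ancestral cells.

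Peak numbers in each list run in order of position, and some are skipped. The block held 94 skipped numbers on soft and 66 on stiff gel in selected cells, against 53 and 45 in ancestral cells. That is 7.18% and 5.33% of all skipped numbers of the selected lists, against 4.79% and 3.84% of those of the ancestral lists. A peak with no partner in a stretch of the other list that holds a skipped number is called undetermined here. Counts described as determined leave these peaks out.

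Markers of the line were checked at gene ends, within 1 kb of either annotated end. VIM, CAV1 and EGFR had an end peak in all 4 lists, and CD44 had one in both selected lists and was undetermined in both ancestral lists. The estrogen receptor gene ESR1 and the leukocyte gene PTPRC had none in any list, but the luminal genes FOXA1, GATA3 and KRT8 and the blood cell genes CD3E and SPI1 had one in all 4 lists.

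Selected cells on soft gel were set against ancestral cells on soft gel. Of the block's members, 1000 of 2102 in selected cells (47.6%, 45.4 to 49.7) had no partner in the ancestral list, against a genome-wide share of 35.8%. In ancestral cells 452 of 1846 (24.5%, 22.5 to 26.5) had no partner in the selected list, against a genome-wide 21.7%. The log2 ratio of these counts was 1.15, which is 0.18 above that of the genome. Of the 452, 361 were undetermined, but only 30 of the 1000 were. Leaving undetermined peaks out thus removes mostly ancestral-only peaks and raises the ratio. Determined peaks numbered 970 only in selected cells and 91 only in ancestral cells, a log2 ratio of 3.41, against 1.22 over the genome. The flank below had 2.51 by this count and the flank above 0.65. All 20 steps of the block had more determined peaks in selected cells only than in ancestral cells only, as did 29 of the 40 steps of the flanks. With undetermined peaks counted, 18 steps of the block had more in selected cells only and 2 had more in ancestral cells only.

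On stiff gel, 1022 of 2106 members in selected cells (48.5%, 46.4 to 50.7) had no partner, against a genome-wide 26.8%, and 246 of 1487 in ancestral cells (16.5%, 14.7 to 18.5), against a genome-wide 21.7%. The log2 ratio was 2.05, which is 1.67 above that of the genome. Relative to the genome, it was 1.02 in the flank below and −0.42 in the flank above. A higher log2 ratio than that of the block was found in 70 of 2432 other windows (2.88%). Here 45 of the 1022 and 181 of the 246 were undetermined, so leaving them out again removes mostly ancestral-only peaks. Determined peaks numbered 977 only in selected cells and 65 only in ancestral cells, a log2 ratio of 3.91, against 0.51 over the genome. The raw counts on stiff gel turned among stronger peaks. At a −log10 q of at least 10 they were 196 only in selected cells and 236 only in ancestral cells. The log2 ratio was then still 1.31 above that of the genome. Among the 54789 strongest peaks of each list the counts were 67 only in selected cells and 77 only in ancestral cells. The list-only peaks of selected cells were weak, with a median pileup of 36 on soft and 34 on stiff gel. Of these, 73.7% and 77.9% lay under 1.5 times the lowest pileup of their list. Genome-wide, the list-only peaks of selected cells had the same medians, 36 and 34, and 72.4% and 71.6% of them lay under that limit.

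Of the 8 genes with the most determined selected-only peaks, 6 were named on both gels. On soft gel ZFAND3, which encodes a zinc finger protein, had 64 determined peaks only in selected cells and 3 only in ancestral cells. BTBD9, a gene linked to restless legs syndrome, had 48 and 2, and LRFN2 had 37 and 11. UBR2, a ubiquitin ligase gene, had 36 and 3, and ANKS1A, an adaptor of receptor tyrosine kinases, had 35 and 2. TRERF1, a transcription regulator gene, had 34 and 0, USP49, a deubiquitinase gene, had 30 and 0, and FKBP5, the glucocorticoid-responsive co-chaperone gene, had 29 and 1. On stiff gel LRFN2 had 53 and 8, TRERF1 39 and 1, ZFAND3 39 and 1, BTBD9 35 and 3, BICRAL, a chromatin remodelling subunit gene, 34 and 1, GRM4, a glutamate receptor gene, 33 and 2, FKBP5 27 and 1, and UBR2 23 and 1. Peaks were assigned to the gene that holds their summit or the nearest within 100 kb, so long genes collect more of them.

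Peaks of ancestral cells without a partner were mostly undetermined. With undetermined peaks counted, CPNE5, a copine gene, led on soft gel, with 1 peak in selected cells without a partner and 24 in ancestral cells. FOXP4, a forkhead factor gene, had 8 and 22, MDGA1, a neuronal adhesion gene, 14 and 20, and PPARD 4 and 17. Without undetermined peaks the ancestral count was 0 at CPNE5, 0 at FOXP4, 2 at MDGA1 and 1 at PPARD. On stiff gel MDGA1 led with 12 and 15, followed by TFEB, a regulator of lysosome genes, with 2 and 13, and the ancestral counts were 2 and 0 without undetermined peaks. LRFN2 had the most determined ones, 11 on soft and 8 on stiff gel.

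**Figure D1:**
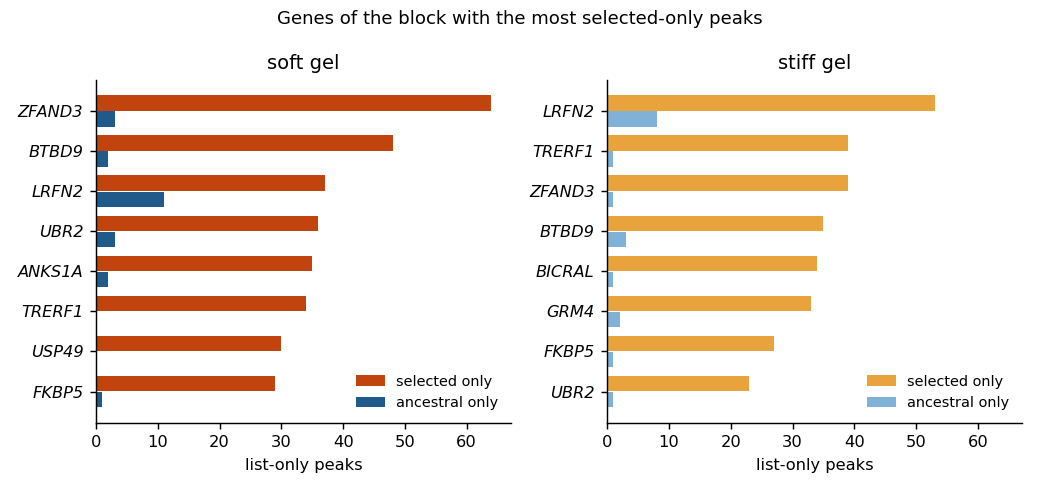
Number of determined peaks of selected cells alone and of ancestral cells alone for the 8 block genes with the most selected-only peaks, on soft gel (left) and stiff gel (right). ZFAND3 reaches 64 against 3 on soft gel and LRFN2 53 against 8 on stiff gel.

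Peaks present in both lists were compared by the log2 ratio of their pileups. The genome-wide median of this ratio, selected over ancestral, was −0.97 on soft and −1.23 on stiff gel, and all ratios below are relative to it. On soft gel the 1077 shared peaks of the block had a median of 0.82 (0.76 to 0.87), which is 1.77-fold, and 80.2% lay above the genome-wide median. The flank below had 0.16 and the flank above −0.06. In the block 676 of 1077 (62.8%) were more than 1.5-fold higher in selected cells, against a genome-wide 21.2%, and 49 (4.55%) were more than 1.5-fold lower, against 12.7%. On stiff gel the 1050 shared peaks had a median of 0.61 (0.54 to 0.70). There 536 (51.0%) were higher, against a genome-wide 19.7%, and 52 (4.95%) lower, against 11.3%. Of the other 10 Mb windows with at least 100 shared peaks, 4 of 2380 on soft gel and 5 of 2432 on stiff gel had a higher median.

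The ratio depended on the strength of the peak, over the whole genome as in the block. Genome-wide, shared peaks in the weakest quartile of mean log2 pileup had a median of 0.75 on soft and 0.68 on stiff gel, and those in the strongest had −0.23 and −0.15. The block had 62.4% of its shared peaks on soft and 56.7% on stiff gel in that weakest quartile. Within it, the block's median was 1.03 on soft and 0.93 on stiff gel, which is 0.28 (0.25 to 0.30) and 0.25 (0.22 to 0.27) above the genome's. In the strongest quartile, the block's median was −0.20 and −0.10, which is 0.03 (−0.04 to 0.09) and 0.05 (−0.05 to 0.08) above the genome's. Relative to shared peaks of the same strength decile, the block's median was 0.19 (0.16 to 0.21) on soft gel and 0.14 (0.12 to 0.17) on stiff gel, against 0.15 and 0.07 in the flank below and −0.07 and −0.10 in the flank above. By that measure 14.3% of the block's shared peaks on soft gel were more than 1.5-fold higher in selected cells, against a genome-wide 10.2%, and 13.8% on stiff gel, against 9.45%. Among the 54789 strongest peaks of each list, the block's median was 0.05 on soft and 0.06 on stiff gel.

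**Figure D2:**
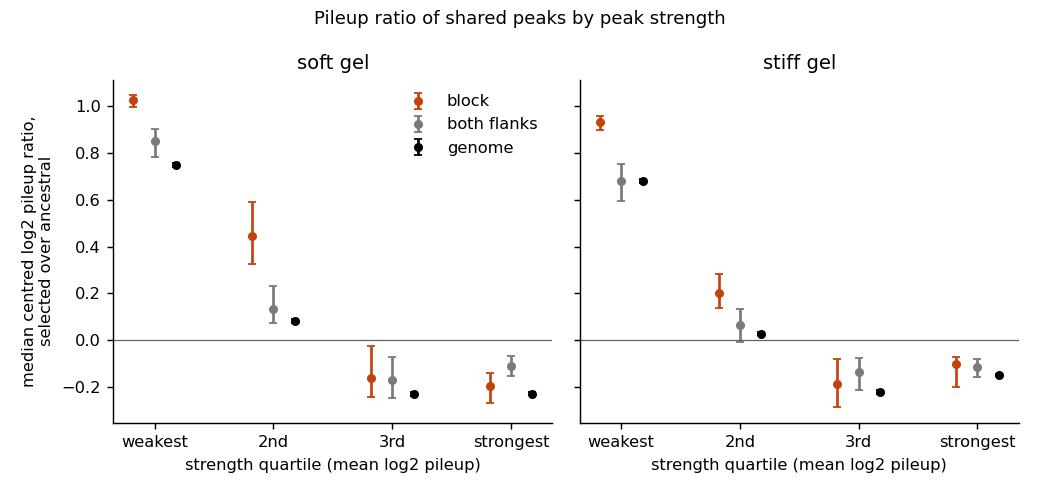
Median log2 pileup ratio of shared peaks, selected over ancestral and relative to the genome-wide median, by strength quartile (weakest to strongest), on soft gel (left) and stiff gel (right). Points are medians for the block, both flanks and the genome, and bars are 95% intervals over peaks. The block stands above the genome in the weaker quartiles and within 0.05 of it in the strongest.

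The position of the peaks split them in the same way. Shared peaks of the block within 1 kb of a gene end had a median of 0.08 on soft (75 peaks) and 0.09 on stiff gel (93 peaks). Those inside genes had 0.87 and 0.71, and those between genes had 0.84 and 0.60. In the flanks together the medians on soft gel were −0.001 at gene ends, 0.32 inside genes and 0.08 between genes. On stiff gel they were 0.002, 0.15 and 0.02. Peak strength was not matched in this split.

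The step that held the edge was the same on both gels. The rule that splits the 500 kb steps from 24 to 54 Mb into 3 segments put the raised segment from 33.5 to 43.5 Mb on soft gel and from 33.5 to 43.5 Mb on stiff gel. Its mean over steps was 0.74 on soft gel, against 0.14 below and −0.03 above, and 0.55 on stiff gel, against 0.08 below and −0.05 above. Applied to single shared peaks, it put the lower edge between summits at 33621066 and 33624313 on soft gel, and between 33632827 and 33640506 on stiff gel, all in ITPR3, which encodes an inositol trisphosphate receptor. The upper edge fell between 43785388 and 43798998 on soft gel and between 43777021 and 43785442 on stiff gel, in or just past VEGFA. Single peaks scatter widely, and these segments took up 14.8% of the sum of squares on soft and 11.7% on stiff gel. The edges of the ratio thus lay within 0.5 Mb of the limits that chose the block.

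The median pileup of the ancestral lists was also compared across the limits of the block. From 33 to 33.5 Mb it was 88.5 in ancestral cells on soft and 90 on stiff gel, and from 33.5 to 34 Mb 48.5 and 69.5. From 43.5 to 44 Mb it was 66 and 106, and from 44 to 44.5 Mb 101 and 196. The selected lists varied less, with 48 on soft and 45 on stiff gel from 33 to 33.5 Mb, then 44 and 39. The 3-segment rule applied to the log2 median pileup of each list put the middle segment from 29 to 45 Mb in ancestral cells on soft gel and from 29 to 44 Mb on stiff gel, so its lower end lay below that of the ratios. In selected cells it ran from 26 to 28.5 Mb on soft and from 26 to 29 Mb on stiff gel. With ratios taken relative to the same strength decile, an alternative added after the data were seen, the segment ran from 41.5 to 43.5 Mb on soft gel and from 46 to 46.5 Mb on stiff gel. Neither edge was thus recovered on stiff gel, where this segment lies outside the block, and the lower edge was not recovered on soft gel.

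Within the block, the steps with the highest median ratio on soft gel were 42 to 42.5 Mb (1.03), around CCND3 and TRERF1, 35 to 35.5 Mb (1.00), around SCUBE3 and PPARD, and 43 to 43.5 Mb (0.97), which holds PTK7 and SRF. On stiff gel they were 41.5 to 42 Mb (0.90), with FOXP4 and TFEB, 43 to 43.5 Mb (0.88) and 40 to 40.5 Mb (0.84) in LRFN2. The lowest were 34.5 to 35 Mb, with SPDEF and SNRPC, at −0.05 on soft and 0.05 on stiff gel, and 38.5 to 39 Mb at 0.01 and −0.13. The step from 38.5 Mb held 10 shared peaks on soft and 9 on stiff gel, too few for a firm median. Of the 20 steps, 19 on soft and 19 on stiff gel lay above 0.

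**Figure D3:**
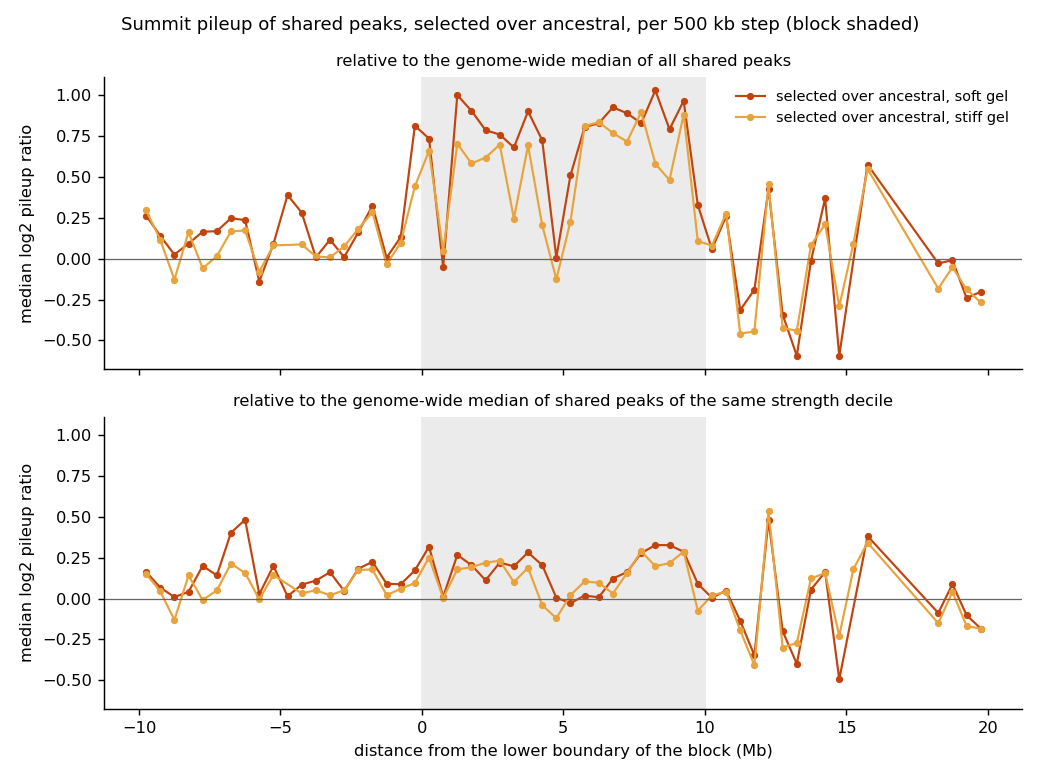
Median log2 pileup ratio of shared peaks, selected over ancestral, per 500 kb step with at least 5 shared peaks, against distance from the lower boundary of the block in Mb, relative to all shared peaks (upper panel) and to shared peaks of the same strength decile (lower panel). In the upper panel the shaded block stands out with medians up to 1.03 on soft gel. By the measure of the lower panel its median over all shared peaks was 0.19 on soft and 0.14 on stiff gel, against 0.15 and 0.07 in the flank below.

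Single peaks spread widely around these medians. The highest shared peaks of the block in all 4 lists lay at OARD1 beside NFYA, in TRERF1, at an end of UBR2, in TMEM217B and at CCDC167. The peak in TRERF1 had a pileup of 2300 on soft and 2926 on stiff gel in selected cells, against 4060 and 5884 in ancestral cells, close to the genome-wide ratio. A peak in PPARD, which encodes a lipid-sensing nuclear receptor, had 246 and 387 in selected cells, against 101 and 215 in ancestral cells. Its ratio was 2.25 on soft and 2.08 on stiff gel, among the 3 highest on each gel. A peak 5269 bp from BLTP3A had 121 and 130 in selected cells, against 46 and 88 in ancestral cells. The lowest ratio on both gels, −2.08 on soft and −2.07 on stiff gel, belonged to a peak 136 kb from MRPL14 with 123 and 125 in selected cells, against 1018 and 1227 in ancestral cells. It lies near the upper limit of the block, with its summit at 43977685, past the edge found from the ratios. A peak near UNC5CL had 94 and 119 in selected cells, against 527 and 678 in ancestral cells.

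Nearly every coding gene of the block had an end peak or was undetermined in each list. An end peak was listed for 104 of 141 genes on soft (73.8%) and 115 on stiff gel (81.6%) in selected cells, against 128 (90.8%) and 129 (91.5%) in ancestral cells. Over the genome 76.1% and 75.9% of genes had one in selected cells, against 72.8% and 73.7% in ancestral cells. All but 2 of the remaining genes were undetermined in the selected lists, with 37 genes on soft and 24 on stiff gel, and all but 1 in the ancestral lists, with 13 and 11. Genome-wide, 2.56% and 2.7% of genes were undetermined in the selected lists, against 1.9% and 2.36% in the ancestral lists. With so few genes determined to lack an end peak, end peaks of a single population could hardly be called in the block, and their count is not set against the genome. The median pileup of the highest end peaks was taken in each list over its own genes with an end peak, so the gene sets differ between lists. It was 252 on soft and 437 on stiff gel in selected cells, against 651.5 and 1044 in ancestral cells. Over the genome it was 291 and 391 in selected cells, against 715 and 1045 in ancestral cells. Whether the copy number of the block differs between groups was not tested, because the lists give no signal between peaks.

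**Figure D4:**
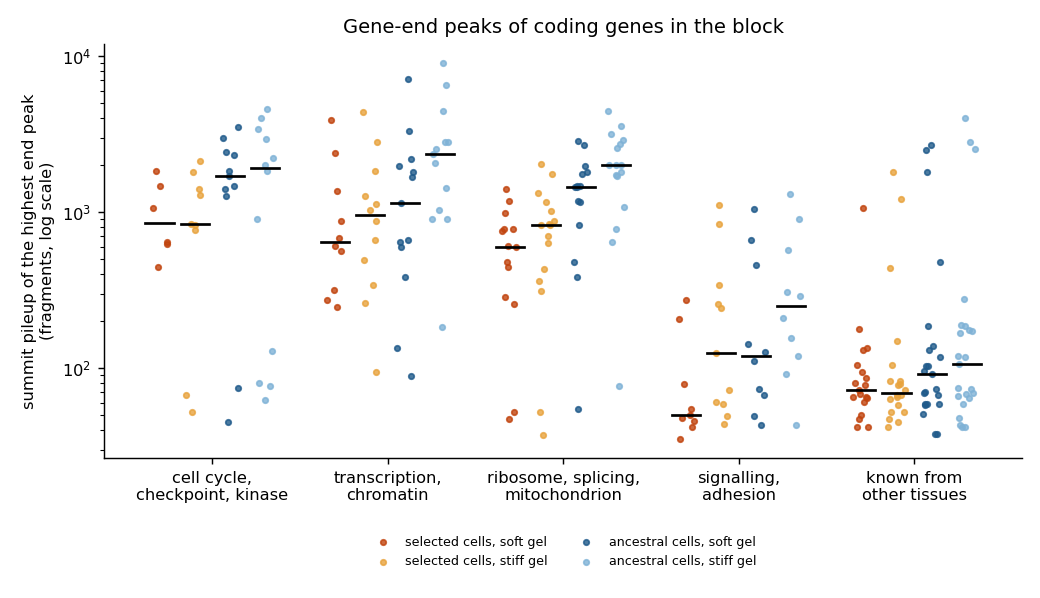
Summit pileup in fragments (log scale) of the highest end peak of each gene, for 5 gene lists of the block, with 1 point per gene and list and black lines at the medians. Genes known from other tissues have medians of 72 and 69.5 in selected cells and 92 and 107 in ancestral cells; a gene's highest end peak need not be the same peak in each list.

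Gene lists of the block were described by function. All 12 cell cycle, checkpoint and kinase genes, among them CDKN1A, CCND3, PIM1 and MAPK14, had an end peak or were undetermined in each list. Where an end peak was shared by selected and ancestral cells, 0 of 6 such genes on soft gel and 1 of 8 on stiff gel were more than 1.5-fold higher in selected cells relative to the genome-wide median. Among transcription factor and chromatin genes these counts were 0 of 8 and 0 of 12, and among ribosome, splicing, RNA and mitochondrial genes 0 of 11 and 0 of 14. Over all shared peaks of the genome, not only those at gene ends, 21.2% on soft and 19.7% on stiff gel were that much higher. More than 1.5-fold lower on soft gel were 1 cell cycle gene and 2 ribosome, splicing, RNA and mitochondrial genes, and 0 on stiff gel in these 3 lists. At HMGA1, which encodes an architectural chromatin protein, the end peak had 316 on soft and 496 on stiff gel in selected cells, against 596 and 1033 in ancestral cells. At UBR2 it had 1846 and 2130 in selected cells, against 3503 and 4607 in ancestral cells. For signalling, adhesion and growth factor genes the counts of higher end peaks were 4 of 7 and 3 of 8, and relative to the same strength decile they were 0 of 7 and 1 of 8. Relative to the genome-wide median, 0 of 7 and 1 of 8 were lower. The ratio at VEGFA was 0.86 on soft and −0.69 on stiff gel, and at DAAM2, a regulator of the actin cytoskeleton, 0.64 and −0.27. The end peaks compared need not be the same on the 2 gels. At DAAM2 the pileups were 39 against 49 on soft gel and 42 against 119 on stiff gel. Between gels in ancestral cells, the peak of 119 was paired with one of 44. Relative to the same strength decile, the ratio at DAAM2 was −0.24 on soft and −0.57 on stiff gel.

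The list of genes known from other tissues includes receptors of myeloid cells and photoreceptor, pancreatic and testis genes. All 23 had an end peak in both ancestral lists, and 19 on soft and 20 on stiff gel had one in selected cells, the others being undetermined. Some of these peaks also lie within 1 kb of an end of a neighbouring gene. PXT1 has the same one as KCTD20, with 1067 and 1220 in selected cells, against 2490 and 2808 in ancestral cells. In ancestral cells PGC has the same one as TFEB, with 1814 on soft and 2526 on stiff gel. Among shared end peaks, 10 of 17 on soft gel and 10 of 18 on stiff gel were more than 1.5-fold higher in selected cells, and 0 on either gel were lower. Their median ratio was 0.94 on soft and 0.69 on stiff gel. Over all coding genes of the block it was 0.00 over 86 genes on soft gel and 0.04 over 103 genes on stiff gel, with 21 and 20 higher. Relative to the same strength decile, the medians were 0.63 and 0.32 for genes known from other tissues, against 0.12 and 0.13 for all coding genes of the block. KCNK16 and KCNK17, potassium channel genes that share 1 end peak, had 65 on soft and 67 on stiff gel in selected cells, against 38 and 42 in ancestral cells. GUCA1A, a photoreceptor calcium sensor gene, had 87 and 63 in selected cells, against 59 and 73 in ancestral cells.

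Determined list-only peaks were more often those of selected cells in every gene list. Over the genome, too, they numbered 44951 only in selected cells and 19299 only in ancestral cells on soft gel, and 31493 and 22056 on stiff gel. On soft gel, cell cycle genes had 132 only in selected cells and 7 only in ancestral cells. Transcription factor and chromatin genes had 73 and 1, ribosome, splicing, RNA and mitochondrial genes 59 and 2, signalling genes 138 and 14, and genes known from other tissues 139 and 25. On stiff gel the counts were 122 and 5, 104 and 1, 74 and 2, 134 and 9, and 142 and 25, in the same order of lists. All coding genes of the block had 919 and 82 on soft gel and 931 and 57 on stiff gel. An excess in selected cells was found at 103 of the 141 genes on soft and 105 on stiff gel, and one in ancestral cells at 2 and 2. With undetermined peaks counted, all coding genes had 949 peaks only in selected cells and 443 only in ancestral cells on soft gel, and 976 and 238 on stiff gel. An excess in selected cells was then found at 75 genes on soft and 92 on stiff gel, and one in ancestral cells at 45 and 25. The direction turned for transcription factor and chromatin genes on soft gel, with 77 peaks only in selected cells and 91 only in ancestral cells, and an excess at 5 and 10 genes.

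Soft gel was set against stiff gel within each population. In ancestral cells, 564 of 1846 members on soft gel (30.6%) had no partner on stiff gel, against a genome-wide 10.3%, and 192 of 1487 on stiff gel (12.9%) had none on soft gel, against a genome-wide 16.8%. The log2 ratio was 1.55 in the block and −0.79 over the genome. The raw counts turned among stronger peaks. At a −log10 q of 10 or more they were 101 only on soft gel and 134 only on stiff gel, but the log2 ratio was still 1.16 above that of the genome. Among the 54789 strongest peaks of each list they were 23 and 48, and the log2 ratio relative to the genome reversed to −0.85. In the block, 19 of 20 steps had more determined peaks on soft gel only, and LRFN2 had the most, with 65 only on soft gel and 8 only on stiff gel. The 1216 shared peaks had a median ratio of soft over stiff gel of 0.13 (0.11 to 0.14) relative to the genome, and 56 of them (4.61%) were more than 1.5-fold higher on soft gel, against a genome-wide 3.67%. Relative to the same strength decile, the share higher fell below that of the genome, with 24 (1.97%) against a genome-wide 2.91%. By that measure 18 (1.48%) were more than 1.5-fold lower, against 3.12%. The change points lay at 35.5 and 42 Mb. Ancestral cells on stiff gel had the fewest peaks in the block and the highest median pileup of the 4 lists.

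In selected cells, 612 of 2102 members on soft gel (29.1%) had no partner on stiff gel, against a genome-wide 21.9%, and 368 of 2106 on stiff gel (17.5%) had none on soft gel, against a genome-wide 15.1%. The log2 ratio was 0.73, which is 0.12 above that of the genome. The 1430 shared peaks had a median ratio of 0.22 (0.19 to 0.23), and 121 of them (8.46%) were more than 1.5-fold higher on soft gel, against a genome-wide 3.37%. Relative to the same strength decile, 41 (2.87%) were higher, against a genome-wide 1.60%, and 10 (0.70%) lower, against 3.61%. All 20 steps lay above 0, between 0.10 and 0.33, and the change points were at 34 and 44 Mb. The comparisons between gels share lists with those between selected and ancestral cells, so their values are not independent.

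Merged over the 4 lists, the peaks of the block formed 2523 regions. Regions present in all 4 lists made up 747 of them (29.6%, 27.8 to 31.4), against 43.7% over the genome. Regions in both selected lists and ancestral cells on soft gel, but not in ancestral cells on stiff gel, made up 190 (7.53%), against 1.57%. Regions in both selected lists only made up 385 (15.3%), against 9.72%, and regions in selected cells on soft gel only 491 (19.5%), against 13.1%. Regions in both ancestral lists only made up 102 (4.04%), against 6.39%.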

How the data were processed

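Peaks were called by the authors. The submitters' processing notes list the GRCh38 build, MACS2 (2.2.7.1), Bowtie2 (2.4.5), Trimmomatic (0.36), MultiQC (1.1) and FastQC (0.11.4). Per the file headers, each peak has a pileup signal at its summit, a −log10 p-value (not used here), a −log10 q-value and a fold enrichment ratio. The deposited pileup is not scaled to depth. The way the libraries of each group were combined is not given in the sources used here, and read totals are not in these columns. The background pileup implied by the deposited fold enrichment was 13.5 and 12.6 in selected cells on soft and stiff gel, and 16.3 and 20.2 in ancestral cells.

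Peaks overlapping by at least 1 bp were shared, with 1 partner each, the nearest summit. Log2 pileup ratios were centred on the median over chromosomes 1 to 22 and X. Steps were split by the 2 change points with the smallest within-segment sum of squares, leaving out steps with under 5 shared peaks. Intervals are exact Clopper-Pearson for shares and order-statistic for medians. Genes came from a RefSeq table of GRCh38.p14 without strand. Of 141 coding genes in the block, 124 matched by symbol to 166 promoters. Genes named are the 8 with the most list-only peaks per comparison, members of 5 gene lists, genes of the 3 highest and 3 lowest steps, the peaks with the highest pileup or extreme ratios, and edge genes. The members and lists were chosen with earlier results of these data known, and the ranking of genes without undetermined peaks was added after the data were seen. The matching was tested on simulated data: with 2000 of 109578 peaks removed from a copy of the list of ancestral cells on soft gel, 2000 were recovered with 0 false ones. The copy kept the same peak coordinates, so this checked the running of the matching only. It cannot show how matching performs between lists whose peak limits differ. Software was matplotlib 3.10.9, scipy 1.17.1, pandas 2.3.3 and numpy 2.4.6 under python 3.11.15.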

Additional observations from a re-analysis of the deposited data

How the results depend on the processing

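Each group had 1 list, so leaving out a replicate was not possible. No paired analysis was possible because the 4 samples of a group share 1 list. Comparisons are given in the order selected over ancestral cells on soft gel, the same on stiff gel, soft over stiff gel in ancestral cells, and soft over stiff gel in selected cells. The causes of the shifts below were not tested. The log2 balance of list-only peaks relative to the genome was 0.18, 1.67, 2.35 and 0.12. It became 1.31, 1.31, 1.16 and 0.99 with −log10 q of at least 10, and 2.19, 3.40, 2.72 and 1.08 without undetermined peaks. With the 54789 strongest peaks in each list it reversed to −0.07 on stiff gel and to −0.85 in ancestral cells. With 50% overlap it was 2.10 in ancestral cells. The median pileup ratio of shared peaks was 0.82, 0.61, 0.13 and 0.22. It became 0.26, 0.16, 0.07 and 0.13 with −log10 q of at least 10, 0.05, 0.06, 0.02 and 0.05 with the same number of peaks, 0.19, 0.14, 0.06 and 0.09 by strength decile, and 0.13, 0.06, 0.00 and 0.02 relative to the list backgrounds. Relative to the flanks it was 0.73 on soft gel. None of the alternatives run reversed the median ratio.

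Edges ran from 33.5 to 43.5, 33.5 to 43.5, 35.5 to 42 and 34 to 44 Mb. With −log10 q of at least 10 the lower edges were at 39.5, 40, 26 and 39.5 Mb, and the upper edges that moved were at 42, 29 and 43 Mb in all but the comparison of selected over ancestral cells on stiff gel. From peak counts the lower edges were at 26, 35, 39.5 and 26.5 Mb, and the upper ones that moved at 46.5, 45 and 53 Mb in all but ancestral cells between gels. By strength decile the lower edges were at 41.5, 46, 48 and 45 Mb, and the upper ones that moved at 46.5, 48.5 and 45.5 Mb in all but selected over ancestral cells on soft gel. For selected cells between gels, 50% overlap and 1 Mb steps each put the lower edge at 35 Mb.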

Other observations

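Promoters of the block were set beside all promoters of coding genes for the motifs searched. SP/KLF letters were in 103 of 166 block promoters (62.0%), against 56.3% of 22156 promoters of coding genes, and CCAAT letters in 55 (33.1%), against 34.6%. TATA letters were in 8 (4.82%), against 9.46%, AP-1 letters in 4 (2.41%), against 4.02%, and TEAD letters in 25 (15.1%), against 12.2%. Among the 123 block promoters with a peak in ancestral cells on soft gel, SP/KLF letters were in 47 of 62 at or above the median pileup of 1007 and in 31 of 61 below it. Several promoters of a gene share sequence or a peak, and no test was made.

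The window from 136 to 146 Mb on chromosome 8 had the highest other median ratio of selected over ancestral cells on soft gel, at 0.97, and on stiff gel the highest was 0.84, from 4 to 14 Mb on chromosome 22.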
